A study of Mus musculus with 63 samples.

Results

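The genes described here encode 9 scaffold proteins of the postsynaptic density, namely Dlg1, Dlg2, Dlg3 and Dlg4, Dlgap1, Shank1, Shank2 and Shank3, and Homer2. They were chosen by their symbols among the 20183 protein-coding genes of the deposited table, and each symbol was found there once. The rule itself uses no measured value, but the list was drawn up with earlier results of these data known. The cells were single layer 2/3 neurons of V1, the primary visual cortex, from C57BL/6 wild type mice of 70 days. Calcium imaging while a drifting grating was shown to the mouse split the neurons into those that answered to light (light-sensitive, LS) and those that did not (non-light-sensitive, NS). The soma was then drawn into a pipette for Smart-seq2, which amplifies the full-length mRNA of a single cell. Both groups share strain, genotype, age and tissue, and differ in the label by the calcium response only. No label ties a cell to its mouse, so all LS cells count as 1 sample and all NS cells as 1 sample, no test between them was made, and every SD is the spread between cells.

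The postsynaptic density is the protein layer beneath the membrane of an excitatory synapse that holds glutamate receptors in place. In the textbook picture it is built in tiers. Dlg proteins (SAP97, PSD-93, SAP102 and PSD-95, the membrane-associated guanylate kinases) bind receptor tails at the membrane, Dlgap proteins (GKAP) join their guanylate kinase domains to the Shank proteins deeper in the density, and Homer proteins join Shank to metabotropic glutamate receptors and to intracellular calcium stores. Most excitatory synapses of pyramidal cells sit on spines, whereas many GABA neurons receive them on the dendritic shaft.

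Of 46 LS and 17 NS cells, 35 LS and 12 NS cells were left by the filters that the study describes, fewer than the study itself kept. These filters remove cells of low cDNA content, of few genes or of high mitochondrial share, and cells with joint markers of glia or of both neuron classes. On the deposited values the mitochondrial limit removed 0 cells and the astrocyte score 10. The cells kept here are thus not the same set as those of the study. Depth was lower in NS cells, with 149133 to 889609 reads on listed genes (median 314366) against 362816 to 2523762 in LS cells (median 875754). Odorant, vomeronasal and taste receptor genes, which cortical neurons are not known to use, served as an index of background. Their mean FPKM (fragments per kilobase of transcript, scaled to the reads of the cell, the unit of every level here) reached at least 10% of the level of an even spread of reads over all genes in 9 of 12 NS cells and in 4 of 35 LS cells. Summed FPKM of 6 neuron markers had a median of 724 (0 to 1344) in LS and of 10.7 (0 to 1182) in NS cells. Of these markers Snap25 had a read in 32 of 35 LS and 5 of 12 NS cells. Summed FPKM of oligodendrocyte markers had medians of 11.9 (0 to 140.2) in LS and 56.1 (0 to 1136) in NS cells, that of microglia markers 301 (0 to 2931) and 554 (0 to 9637), and that of astrocyte markers 93.02 (1.11 to 1049) and 93.86 (0 to 1567). Of oligodendrocyte precursors, summed FPKM of Pdgfra and Cspg4 had a mean of 0.72 in LS and 69.4 in NS cells, with a read in 8 of 35 and 8 of 12 cells. None of the 7 astrocyte or 6 microglia markers was at 0 in all cells of either group, and 1 of 7 oligodendrocyte markers was at 0 in all LS cells and 1 of 7 in all NS cells. Depth, background and the summed neuron, oligodendrocyte, precursor and microglia markers thus move with the LS and NS labels. Summed astrocyte markers differed by mean (161 in LS and 296 in NS cells), though hardly by median. By mean FPKM of single genes Map2, Mbp, Olig2, Cx3cr1 and P2ry12 went against the direction of their lists. Sums of blood and of endothelium markers had the higher means in LS cells. Summed FPKM of 4 blood markers had a mean of 1811 (0 to 61741) in LS and 6.03 (0 to 53.8) in NS cells. A read of them was found in 17 of 35 and 4 of 12 cells. The sum of 4 endothelium markers had a mean of 21.7 in LS and 7.62 in NS cells, with a read in 11 of 35 and 5 of 12 cells. Both medians were 0 in both groups. The part of depth, background and all these markers in the results below was not tested.

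A cell was called glutamate-marked where the summed FPKM of Slc17a7 (the vesicular glutamate transporter VGLUT1) and Neurod2 (a transcription factor of pyramidal cells) exceeded that of Gad1 and Gad2 (the enzymes that make GABA), GABA-marked where it was lower, and unmarked where all 4 genes were at 0. This gave 30 glutamate-marked, 4 GABA-marked and 1 unmarked LS cells, and 2 glutamate-marked, 6 GABA-marked and 4 unmarked NS cells. Camk2a, a pyramidal-cell kinase gene, had a read in 30 of 30 glutamate-marked LS cells but also in 4 of 4 GABA-marked LS cells and 5 of 6 GABA-marked NS cells. The class is therefore a marker class and not a cell type settled by all its markers. Vip, the gene of an interneuron peptide, had a read in 3 of 4 GABA-marked LS cells and in 0 of 6 GABA-marked NS cells. Sst, the gene of another interneuron peptide, had a read in 0 of 4 and 1 of 6 of them.

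**Figure D1:**
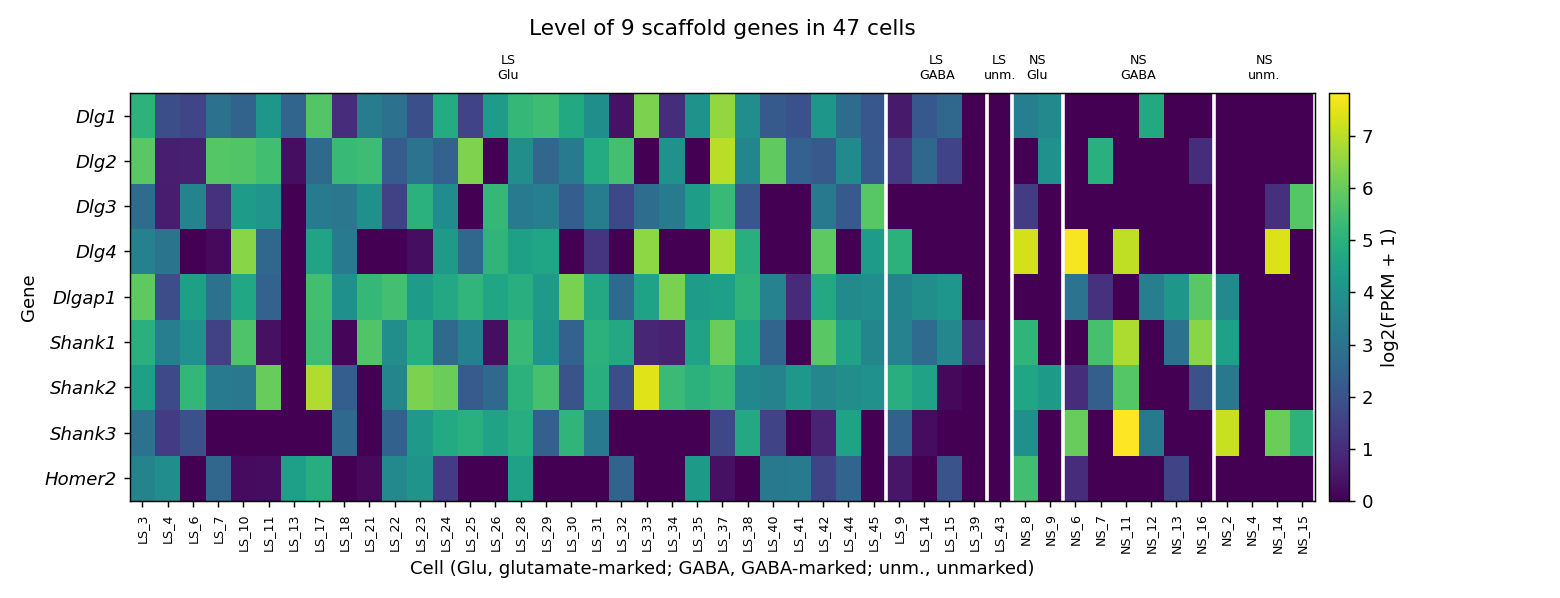
Each column is 1 of the 47 cells and each row 1 gene, and the color gives log2(FPKM + 1). White lines part the marker classes within the 35 LS and the 12 NS cells. Glutamate-marked LS cells carried most of the 9 genes at once, whereas the NS cells carried few genes each, some of them (Dlg4, Shank3) at high levels.

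In LS cells most scaffold genes were found together. A mean of 7.03 of the 9 genes had a read per LS cell and of 3.50 per NS cell, and 7 LS cells but 0 NS cells held all 9. After each cell was thinned to 140000 reads on listed genes, the means were 6.54 ± 2.08 (SD over 35 cells) and 3.42 ± 1.51 (SD over 12 cells), 72.7% and 37.96% of the 9 genes. This gap was near that over the background genes defined below, of which thinned LS cells held a mean of 64.4% and NS cells of 31.5%. At that depth 32 of 35 LS cells and 2 of 12 NS cells held at least 5 genes. The tiers of the density were present together, as at least 1 Dlg gene, Dlgap1 and at least 1 Shank gene, in 32 of 35 LS cells and in 4 of 12 NS cells. As shares these were 91.4% (76.9 to 98.2%) and 33.3% (9.92 to 65.1%), with exact Clopper-Pearson 95% limits. Thinning left both counts as they were. Limits on shares of cells treat each cell as an independent draw, and differences between mice are not in them. Reads carry no molecular identifiers, so the counting intervals of pooled reads take every read as independent. Those intervals leave out amplification and the spread between cells. Dlgap1 stood for its tier here, while its paralog Dlgap2 had a read in 6, Dlgap3 in 4 and Dlgap4 in 7 of 12 NS cells. With any of these 4 Dlgap genes as the middle tier, a choice made after seeing the data, 32 of 35 LS and 7 of 12 NS cells (58.3%, 27.7 to 84.8%) held all tiers. With Dlgap1 alone the 4 NS cells were all GABA-marked (4 of 6). In LS cells the tiers were complete in 29 of 30 glutamate-marked and 3 of 4 GABA-marked cells. The unmarked LS cell, LS_43, had no read of any of the 9 genes, at 1640 genes above 1 FPKM and a mitochondrial share of 12.1%, the highest among LS cells. NS_4 also had none, at 2118 genes.

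For each gene, the ratio of the mean FPKM over LS cells to that over NS cells was read as higher or lower from 2-fold on. A gene entered the background if 50% or more of the LS or of the NS cells had a read and either mean reached 1 FPKM. Of 6406 such genes, 42.3% were at least 2-fold higher in LS cells and 16.1% at least 2-fold lower. Without this filter on low values the shares were 31.5% and 39.6%, so the balance of the background depends on it. All 9 scaffold genes passed this filter, 5 were at least 2-fold higher (Dlg1, Dlg2, Dlg3, Shank2, Dlgap1) and 2 at least 2-fold lower (Dlg4, Shank3). The median log2 ratio was 1.04 for the 9 genes and 0.64 for all 6406. At 5 of 9 and 2 of 9 the counts stand near the filtered shares, and what follows is a description of single genes. For every gene the LS and NS ranges overlapped, since some cells of both groups had no read.

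**Figure D2:**
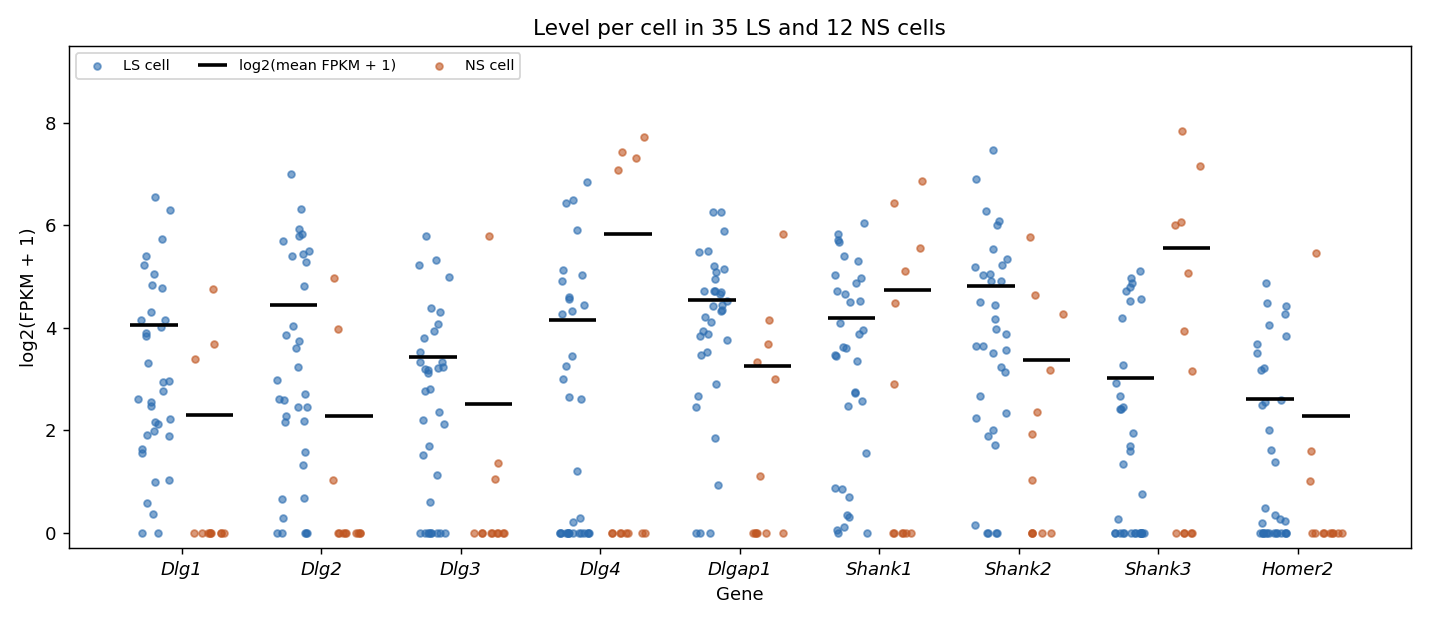
Each point is the log2(FPKM + 1) of a gene in 1 cell, with 35 LS cells in blue and 12 NS cells in orange, and the black line is log2 of the mean FPKM + 1 of the group. The 4 NS cells with Dlg4 all lie above the highest LS cell, as do 4 NS cells for Shank3, while most NS cells lie at 0 for Dlg1, Dlg2, Dlg3 and Homer2.

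Dlg1 (ENSMUSG00000022770, chromosome 16, 31663443 to 31875129, plus strand, GRCm38) encodes SAP97, a scaffold known for carrying AMPA receptors along the secretory route. In LS cells its level ran from 0 through a median of 5.77 to 92.8 FPKM, and 33 of 35 cells had a read. Of the 12 NS cells only NS_8, NS_9 and NS_12 had reads, at 9.49, 11.8 and 26.01 FPKM. Dlg1 was thus nearly general in LS cells and rare in NS cells, but the few NS cells that had it lay within the LS range. The means were 15.7 ± 21.8 and 3.94 ± 8.09 FPKM, 3.98-fold apart (log2 1.99). Pooled reads gave a smaller log2 ratio of 1.25 (counting interval 1.09 to 1.41), and NS_12 supplied 75.1% of the NS reads. Without it the log2 ratio of means was 3.02. At a receptor gene level under 10%, 29 of 31 LS cells and 0 of 3 NS cells had a read.

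Dlg2 (ENSMUSG00000052572, chromosome 7, 90476672 to 92449247, plus strand) encodes PSD-93, a close relative of PSD-95. LS cells held 0 to 128 FPKM with a median of 5.57, and 30 of 35 had a read. NS_7 with 30.3, NS_9 with 14.7 and NS_16 with 1.06 FPKM were the only NS cells with a read. The means of 20.8 ± 28.8 and 3.84 ± 9.33 FPKM were 5.43-fold apart (log2 2.44), and pooled reads gave log2 3.12 (2.89 to 3.37). This was the largest LS-to-NS ratio among the 9 genes. NS_7 carried most of the NS level, and the log2 ratio was 3.86 without it.

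Dlg3 (ENSMUSG00000000881, X chromosome, 100767722 to 100818410, plus strand) encodes SAP102, the member of the family best known from young synapses and for binding NMDA receptors. It was found in 26 of 35 LS cells, at 0 to 54.7 FPKM with a median of 6.01. In NS cells it was found in NS_15 at 54.1, NS_8 at 1.56 and NS_14 at 1.08 FPKM. The mean over NS cells, 4.73 ± 15.6 FPKM, was therefore nearly that of NS_15 alone, an unmarked cell with the highest receptor gene level of all 47 cells (216%). The log2 ratio of 1.04 sat at the limit of 2-fold. It was 5.34 without NS_15, and it fell below 2-fold, to between 0.83 and 0.996, for 16 of the 47 cells left out in turn, LS_45 (the LS cell with most Dlg3) giving the lowest. Pooled reads gave 1.65 (1.33 to 1.99).

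Dlg3 also had the widest gap between the marker classes of the 9 genes, by share of cells with a read. It had a read in 27 of 32 glutamate-marked cells of both groups (84.4%, 67.2 to 94.7%) and in 0 of 10 GABA-marked cells (exact interval 0 to 30.8%; a count of 0 allows a share of up to 30% by the rule of 3 cells). Among LS cells alone 26 of 30 glutamate-marked and 0 of 4 GABA-marked cells had a read (exact upper limit 60.2% for the latter). Among NS cells 1 of 2 and 0 of 6 had one. Of the unmarked cells of both groups 2 of 5 had a read. The pooled shares thus mix the marker class with the LS and NS labels. The median depth was 1122958 reads in the 4 GABA-marked LS cells, 911848 in glutamate-marked LS cells and 328975 in GABA-marked NS cells. With the 16 removed cells added, 33 of 40 glutamate-marked and 1 of 13 GABA-marked cells had a Dlg3 read, the latter a removed cell with 16.3 FPKM. The ratio of glutamate-marked to GABA-marked cells among all LS cells was then log2 1.93.

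Dlg4 (ENSMUSG00000020886, chromosome 11, 70016942 to 70047522, plus strand) encodes PSD-95, the most studied scaffold of the density. Its pattern was the opposite of that of Dlg1 to Dlg3. LS cells held 0 to 114 FPKM with a median of 1.30, and 20 of 35 had a read. In NS cells, 4 of 12 had a read, and these lay at 210 (NS_6), 172 (NS_14), 159 (NS_8) and 135 (NS_11) FPKM. All 4 exceeded the highest LS cell, LS_37, whereas the other 8 NS cells were at 0. The groups therefore overlapped only in the cells without a read. The means were 16.7 ± 28.4 and 56.3 ± 84.8 FPKM, 3.37-fold lower in LS cells (log2 -1.75, pooled reads -1.64 with an interval of -1.73 to -1.55). The share of cells with a read had the other direction (57.1%, 39.4 to 73.7%, against 33.3%, 9.92 to 65.1%). A mean of log2(FPKM + 1), which weights presence over height, gave -0.19, and log2(FPKM + 0.1) gave 0.43. Of the 4 NS cells, 3 had a receptor gene level of at least 10% (104%, 118% and 112%) and NS_14 had 3.36%. NS_14 is an unmarked cell with a mitochondrial share of 9.13%. Whether background sets these values was not tested.

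Dlgap1 (ENSMUSG00000003279, chromosome 17, 69969073 to 70821413, plus strand) encodes GKAP, the link between the Dlg and Shank tiers. It was the most even of the 9 genes in LS cells by SD relative to the mean, with a read in 32 of 35, a median of 19.3 and a highest value of 75.8 FPKM. NS cells with a read were NS_16 at 55.9, NS_13 at 16.9, NS_2 at 11.9, NS_12 at 9.11, NS_6 at 6.96 and NS_7 at 1.15 FPKM. The other 6 NS cells, both glutamate-marked ones among them, had none. The means were 22.5 ± 19.1 and 8.50 ± 16.02 FPKM, 2.64-fold apart (log2 1.40). Pooled reads fell just short of 2-fold (log2 0.94, 0.85 to 1.04), and NS_16 supplied 66.4% of the NS reads. At a receptor gene level under 10%, 2 of the 3 NS cells had Dlgap1 and the means were 21.8 and 24.3 FPKM in 31 LS and 3 NS cells, so the direction was not kept there.

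Among the Shank genes, which encode the large scaffolds of the deeper tier, Shank2 (ENSMUSG00000037541, chromosome 7, 144001928 to 144424494, plus strand) had the highest mean of all 9 genes in LS cells. Its level was 0 to 176 FPKM with a median of 13.7, and 31 of 35 LS cells had a read. Of 12 NS cells, 7 had a read, from 1.06 FPKM in NS_6 to 53.9 FPKM in NS_11. All of them lay within the LS range. The means were 27.1 ± 36.7 and 9.35 ± 16.1 FPKM, 2.90-fold apart (log2 1.54, pooled reads 1.87 with an interval of 1.73 to 2.02). Without NS_11 the log2 ratio was 2.36.

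Shank1 (ENSMUSG00000038738, chromosome 7, 44310253 to 44360572, plus strand) did not reach 2-fold by mean FPKM, and its direction turned with the average used. LS cells held 0 to 65.2 FPKM with a median of 11.1, and 33 of 35 had a read. The 6 NS cells with a read were NS_11 at 116, NS_16 at 86.0, NS_7 at 46.03, NS_8 at 33.7, NS_2 at 21.3 and NS_13 at 6.53 FPKM. NS_11 and NS_16 exceeded every LS cell. The means were 17.4 ± 18.3 and 25.8 ± 38.9 FPKM (log2 -0.57), whereas means of log2(FPKM + 1) gave 0.59, and means of log2(FPKM + 0.1) and medians over cells were past 2-fold towards LS cells (1.66 and 1.77). Shank1 thus was more often present in LS cells and higher in the NS cells that had it. Its exons overlap 339 bases of 1700008O03Rik on the opposite strand, 3.22% of their length.

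Shank3 (ENSMUSG00000022623, chromosome 15, 89499623 to 89560261, plus strand), a gene known for its loss in Phelan-McDermid syndrome, showed the largest ratio towards NS cells. In LS cells its level was 0 to 33.6 FPKM with a median of 1.54, and 20 of 35 had a read. In NS cells 7 of 12 had a read, at 227 (NS_11), 142 (NS_2), 65.9 (NS_14), 63.3 (NS_6), 32.7 (NS_15), 14.3 (NS_8) and 7.95 (NS_12) FPKM. The first 4 of these exceeded every LS cell. Shares with a read were 57.1% (39.4 to 73.7%) and 58.3% (27.7 to 84.8%), so the difference in means came with the height and not with the number of cells. The means were 7.13 ± 10.8 and 46.2 ± 71.4 FPKM, 6.47-fold lower in LS cells (log2 -2.69, pooled reads -2.55 with an interval of -2.64 to -2.46). NS_11 supplied 40.6% of the NS reads, and the log2 ratio was -2.06 without it. Of the 7 NS cells with a read, 6 had a receptor gene level of at least 10%. In the 31 LS and 3 NS cells below that level the means were 6.68 and 21.97 FPKM, the latter from NS_14 alone. NS_14 had the highest mitochondrial share of the 12 NS cells (9.13%). NS_2, NS_14 and NS_15 are unmarked, a class with a Shank3 mean of 60.2 FPKM over 4 NS cells. In these 4 cells summed neuron markers had a median of 5.84 FPKM (0 to 83.0). Microglia markers had one of 1885 (41.1 to 9637) and astrocyte markers one of 739 (0 to 1567). Their part in the Shank3 values was not tested. In glutamate-marked cells the direction was not kept, with a mean of 8.16 FPKM over 30 LS and of 7.17 FPKM over 2 NS cells.

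Homer2 (ENSMUSG00000025813, chromosome 7, 81600481 to 81707527, minus strand), whose protein joins Shank to metabotropic receptors, had the lowest mean in LS cells. Its level was 0 to 28.2 FPKM with a median of 0.27, and 21 of 35 LS cells had a read. In NS cells it was found in NS_8 at 43.04, NS_13 at 2.02 and NS_6 at 1.01 FPKM. The means of 5.10 ± 7.65 and 3.84 ± 12.4 FPKM differed 1.33-fold (log2 0.41), and NS_8 supplied 92.9% of the NS reads. Without NS_8 the log2 ratio was 4.21, and in glutamate-marked cells, where NS_8 is 1 of 2 NS cells, it was -1.88.

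FPKM is per length, so levels may be set side by side between genes within LS cells. By mean FPKM the order was Shank2 (27.1), Dlgap1 (22.5), Dlg2 (20.8), Shank1 (17.4), Dlg4 (16.7), Dlg1 (15.7), Dlg3 (9.73), Shank3 (7.13) and Homer2 (5.10). No pair of neighbours in this order was further apart than the SD between cells. By median the order began with Dlgap1 (19.3), Shank2 (13.7) and Shank1 (11.1), and Dlg4 (1.30) dropped near the end, since its level rested on fewer cells. The length behind the FPKM of Dlg4 was 4982 bases, against 13251 bases of exons in the GENCODE M21 annotation. For Dlg2 it was 10345 against 16280 bases. With the annotated exon lengths, another choice made after seeing the data, the LS means would be 6.28 FPKM for Dlg4, 13.2 FPKM for Dlg2, 13.1 FPKM for Dlg1 and 13.7 FPKM for Shank1, so that Dlg4 would come next to last and Dlg2 after Shank1. Ratios between cells would stay the same.

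The make-up of each family was read cell by cell. LS cells mixed the Dlg genes. A median of 3 of the 4 had a read in the 33 LS cells with any, the leading gene held a median of 60.3% of their summed FPKM, and 0 of 33 cells had a single Dlg gene. Dlg2 led in 14, Dlg1 in 8, Dlg4 in 6 and Dlg3 in 5 of them. In contrast, 6 of the 9 NS cells with any Dlg gene had 1 only, and the median share of the leading gene was 100%. Dlg4 made up 81.8% of the summed mean Dlg level in NS cells and 26.5% in LS cells. Among Shank genes the leading one held a median of 69.1% in 33 LS cells and 98.4% in 11 NS cells. Shank2 led in 15 of 33 LS cells and in 1 of 11 NS cells, and Shank3 in 6 of 33 and 6 of 11. By mean level Shank2 made up 52.5% of the Shank sum in LS and 11.5% in NS cells, and Shank3 13.8% and 56.8%. These shares do not depend on the total of a cell, but a shallow cell or one with fewer captured molecules can miss the weaker paralogs, and that part was not tested. They do depend on the length behind the FPKM, which for Dlg4 was 4982 against 13251 annotated bases. With annotated exon lengths the share of Dlg4 would be lower in both groups, and the leading gene of a cell could change.

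**Figure D3:**
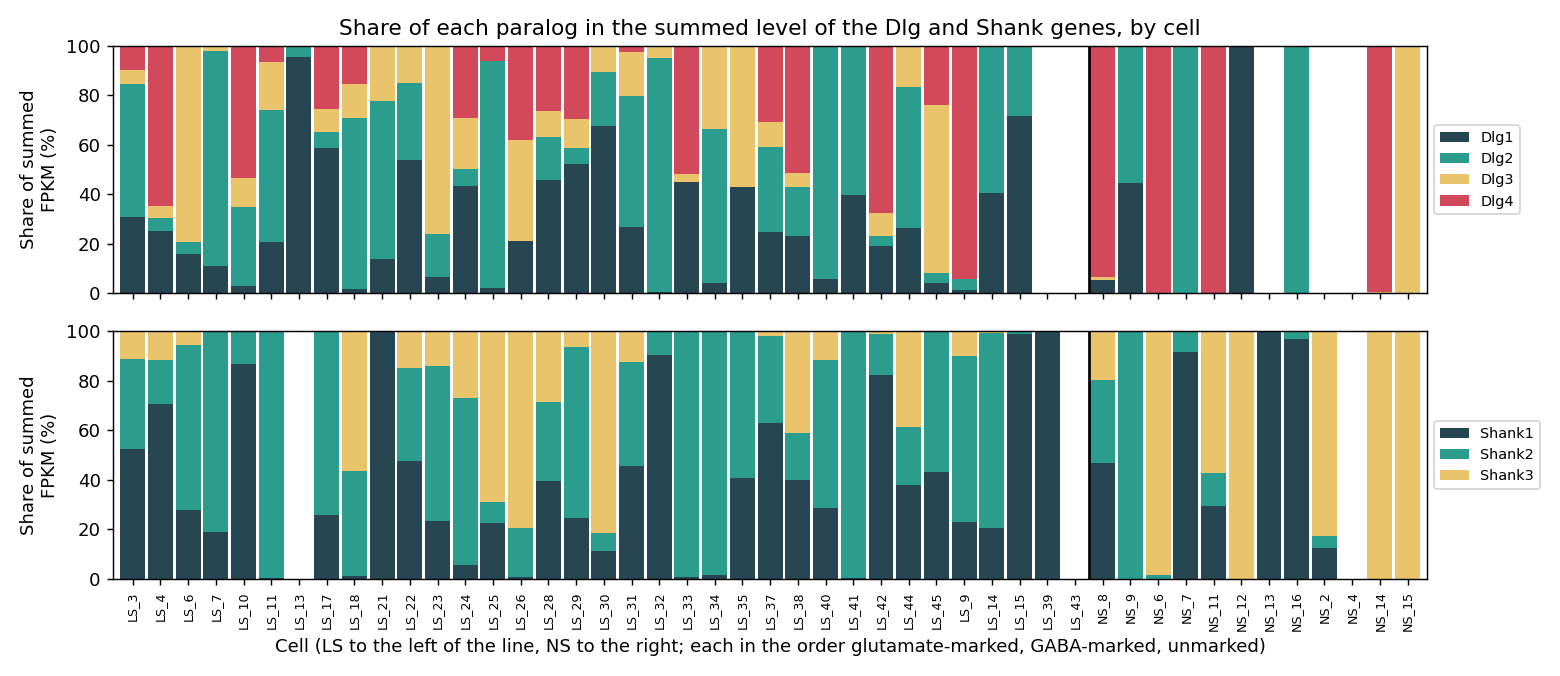
Each bar is 1 cell, and its colors give the share of each paralog in the summed FPKM of the Dlg genes (top) or the Shank genes (bottom). An empty place is a cell without a read of that family. LS bars hold several colors, while 6 of 9 NS bars for Dlg hold only 1.

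Within LS cells, where the light response is the same, all 9 genes were at least 2-fold higher in the 30 glutamate-marked than in the 4 GABA-marked cells by mean FPKM. Of 8471 genes passing the same filter, 35.8% were at least 2-fold higher and 21.2% at least 2-fold lower. The median log2 ratio was 2.78 for the 9 genes and 0.33 for all 8471. The count of scaffold genes lies above that share, but it rests on 4 GABA-marked cells (LS_9, LS_14, LS_15 and LS_39). LS_39, with 2207 genes above 1 FPKM, had a read of Shank1 only, and 6 of 9 genes stayed at 2-fold or more without it. Summed FPKM of the 6 neuron markers was also higher in glutamate-marked than in GABA-marked LS cells (mean 726 against 339, median 763 against 268). Snap25 had 297 against 99.5 FPKM, and Stmn2 35.6 against 33.6 FPKM. The part of this general difference in the ratios of the scaffold genes was not tested.

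The largest difference was that of Dlg3, with a mean of 11.4 FPKM and a read in 26 of 30 glutamate-marked cells, and no read in the 4 GABA-marked cells. Its size cannot be given as 1 fold. With a floor of 3 reads over the GABA-marked cells the log2 ratio was 6.79 by mean FPKM, 6.43 by pooled reads (counting limit 6.14), 6.08 by mean FPKM without LS_14 or LS_15, and 3.84 after thinning. Dlg2 followed (24.03 against 2.15 FPKM, 11.2-fold, pooled log2 3.34 with an interval of 3.09 to 3.60), then Dlg1 (18.03 against 2.27 FPKM, 7.95-fold), Shank3 (8.16 against 1.17 FPKM, 7.001-fold) and Homer2 (5.83 against 0.85 FPKM, 6.87-fold). In all LS cells, the removed ones included, the log2 ratio of Shank3 was 0.08, which ends its call, and that of Dlg2 was 1.49 in place of 3.48. GABA-marked cells reached no more than 5.08 FPKM of Dlg1 and 5.10 FPKM of Dlg2, within the lower part of the glutamate-marked range of 0.29 to 92.8 and 0 to 128 FPKM.

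Shank1 (19.4 against 7.01 FPKM, 2.76-fold), Dlgap1 (24.9 against 10.1 FPKM, 2.46-fold), Shank2 (29.9 against 12.8 FPKM, 2.34-fold) and Dlg4 (18.4 against 7.96 FPKM, 2.31-fold) lay closer to the limit. Shank1 had a read in 4 of 4 GABA-marked LS cells, and Dlgap1 in 3 of 4 at 10.5 to 16.2 FPKM. LS_9 alone supplied Dlg4 in this class, at 31.8 FPKM, and it held 85.7% of the Shank3 reads of this class, while LS_14 held 72.4% of its Shank2 reads. LS_9 had a receptor gene level of 34.1%, the highest among LS cells. Without it the log2 ratio of Dlg4 was 7.23 against the floor of 3 reads, that of Shank3 6.89 and that of Shank2 2.04. The call of Dlg4 ended without LS_37 (log2 0.93) and without LS_14, LS_15 or LS_39 (0.80 each), that of Shank2 without LS_33 (0.96), LS_15 or LS_39 (0.81 each), and that of Dlgap1 without LS_39 (0.88).

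**Figure D4:**
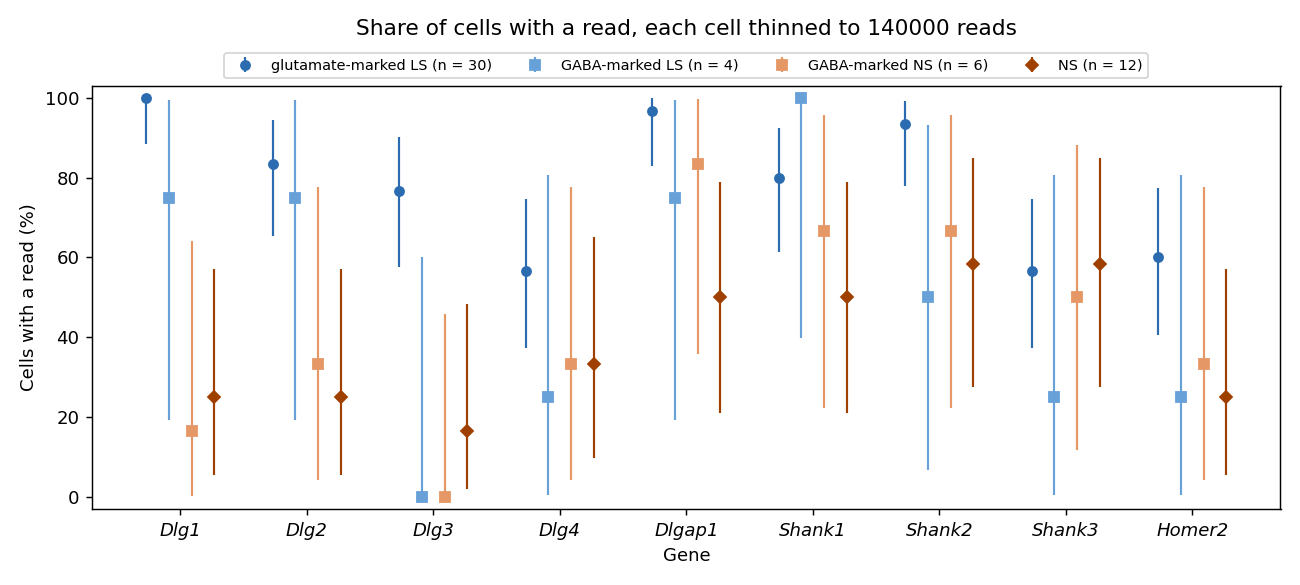
Points give the percent of cells with a read of each gene after thinning each cell to 140000 reads. Groups are glutamate-marked LS, GABA-marked LS, GABA-marked NS and all NS cells (the 6 GABA-marked ones included). Bars give exact binomial 95% intervals, which treat each cell as an independent draw. Dlg3 is at 0 in both GABA-marked groups, and Shank3 is the gene whose share is nearest in glutamate-marked LS and in NS cells.

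The GABA-marked class allows LS and NS cells to be set side by side within 1 class, with 4 and 6 cells. Shank3 had a mean of 1.17 FPKM (highest 4.46) in GABA-marked LS cells and of 49.8 FPKM (highest 227) in GABA-marked NS cells, log2 -5.42. NS_11 (receptor gene level 112%) supplied 79.5% of those NS reads, and the NS mean was 14.2 FPKM without it. Shank1 had 7.01 and 42.5 FPKM (log2 -2.60), and 27.7 FPKM in NS cells without NS_11. Dlg4 had 7.96 and 57.5 FPKM (log2 -2.85), but it did not pass the filter on low values here, with a read in 1 of 4 and 2 of 6 cells. By mean FPKM these 3 genes were lower in the GABA-marked LS cells, as were Dlg1, Dlg2 (log2 -1.28) and Dlgap1. The share of all genes at least 2-fold lower was not computed for these cells, so nothing is read from the count of genes. Dlg1 had 2.27 and 4.33 FPKM, the latter from NS_12 alone, with a read in 3 of 4 and 1 of 6 cells. Dlg2 had 2.15 and 5.22 FPKM, but the NS mean was 0.21 FPKM without NS_7, and pooled reads had the other sign (log2 0.13, -0.30 to 0.57). Dlgap1 had 10.1 and 15.004 FPKM, and 6.82 FPKM in NS cells without NS_16. Shank2 had 12.8 and 10.3 FPKM (1.601 FPKM in NS cells without NS_11), Homer2 0.85 and 0.51 FPKM, and Dlg3 no read in either. Over the 7329 genes that passed the filter for these cells the median log2 ratio was 0.87. Of the 6 GABA-marked NS cells, 4 had a receptor gene level of at least 10%, against 1 of the 4 LS cells. Marker class and light response are unevenly crossed in these cells, since 30 of 35 LS cells but 2 of 12 NS cells were glutamate-marked.

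**Figure D5:**
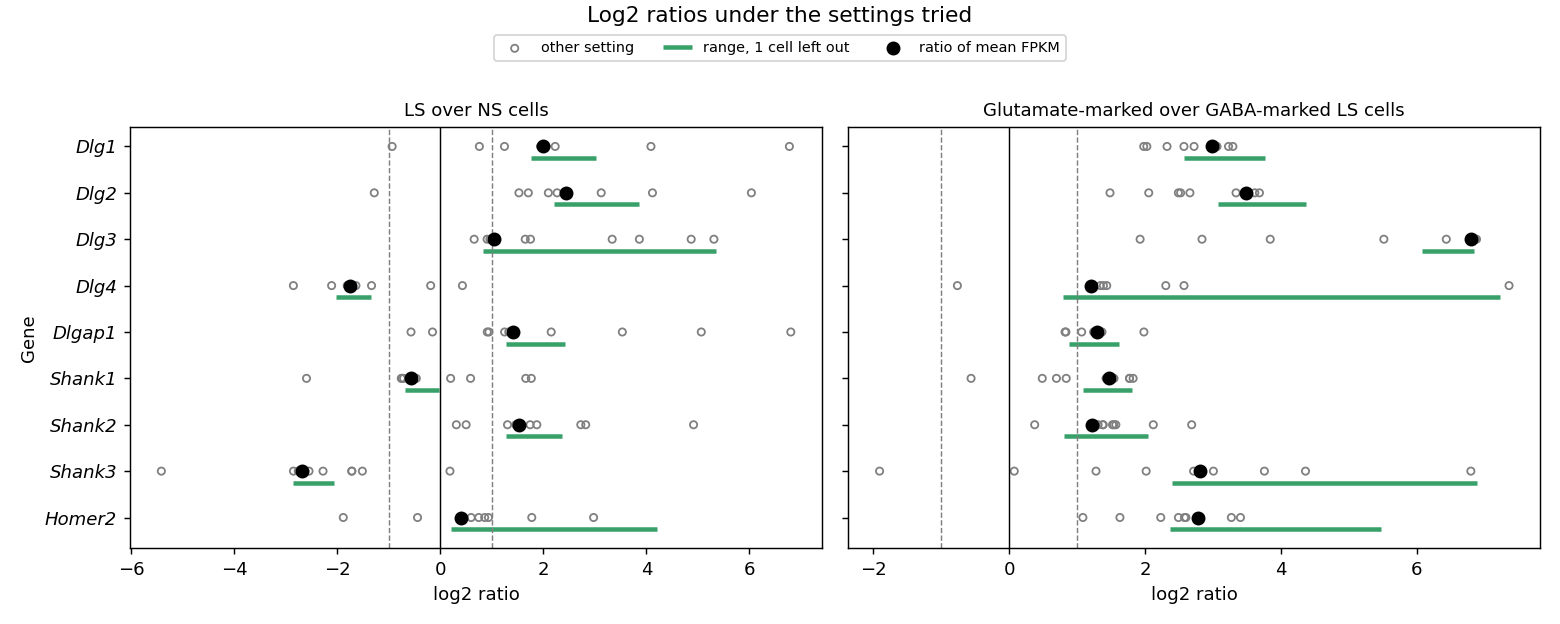
Black points are log2 ratios of mean FPKM for LS over NS cells (left) and for glutamate-marked over GABA-marked LS cells (right). Grey circles are the same ratio under the other settings, green lines the range with 1 cell left out in turn, and dashed lines 2-fold. Ratios against a group without a read (Dlg3 on the right) use the floor of 3 reads. For LS over NS the black points of Shank3 and Dlg4 lie left of the dashed line, though not all their grey circles (Dlg4 reaches 0.43 on the log2(FPKM + 0.1) scale, Shank3 0.19 in glutamate-marked cells). All 9 black points on the right side lie beyond 2-fold.

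Across the 30 glutamate-marked LS cells correlations between the 9 genes were mostly low. Pearson correlations of log2(FPKM + 1) over the 36 pairs of genes ran from -0.35 to 0.57 with a median of 0.15, and 11 pairs exceeded 0.3. The highest were Dlg1 with Dlg4 (0.57), Dlg1 with Shank2 (0.47), Shank1 with Dlgap1 (0.44) and Dlg3 with Dlgap1 (0.43, but 0.17 by Spearman's rho). The lowest were those of Homer2 with Dlg3 (-0.35), Dlgap1 (-0.32) and Dlg4 (-0.31). Values of 1 cell share its library, and correlations with the number of genes detected ran from -0.22 (Dlgap1) to 0.31 (Shank1). Those with log2 of the reads per cell ran from -0.31 (Dlg3) to 0.24 (Homer2). Pairs of other genes were not set beside these values, so whether the correlations are low for such cells was not tested.

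The genes whose levels were most like those of each scaffold gene were sought over all 35 LS cells among the 6121 genes that 50% or more of them had a read of. Dlgap1 was closest to Snap25, a component of the release machinery (0.84), Ncdn (0.81) and Cpne6 (0.81). Dlg3 was closest to Wipf3 (0.82), Rtn4rl1, a relative of the Nogo receptor gene (0.76), and Lmo7 (0.75), and Dlg2 to Fbxo34 (0.79), Adgrl3, a latrophilin adhesion receptor gene (0.71), and Prepl (0.69). Shank2 was closest to Erc2, a presynaptic active-zone scaffold gene (0.74), Luc7l3 (0.72) and Ube3a, the ubiquitin ligase gene of Angelman syndrome (0.72), and Dlg1 to Dock4 (0.73), the AMPA receptor gene Gria1 (0.72) and Plxna2 (0.70). Close to Dlg4 were Zfyve28 (0.69) and the NMDA receptor gene Grin2a (0.62). For Homer2 they were Trappc9 (0.68), Gclm (0.58) and Cystm1 (0.57), for Shank3 Pbx4 (0.67), Etv5 (0.66) and Fmnl1 (0.62), and for Shank1 Ube2o (0.66), Pkd1 (0.65) and Arfgef3 (0.64). These are the top values of a search over all those genes over cells that include those without any scaffold gene, and they are given as a description.

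Further genes of the density and its neighbours were read from lists. Of 32 other excitatory scaffold genes and their partners 26 passed the filter for LS over NS, 11 were at least 2-fold higher and 3 at least 2-fold lower in LS cells, with a median log2 ratio of 0.37, below the 0.64 of all genes tested. The background shares were 42.3% and 16.1%, and 11 of 26 is no more than the former. The most abundant of them in LS cells were Baiap2, which encodes IRSp53, a regulator of actin in spines (72.1 against 18.9 FPKM), Begain, whose product binds PSD-95 (53.0 against 3.11 FPKM), Lin7b, a gene of the CASK complex (49.6 against 8.27 FPKM), and Cnksr2 (37.9 against 5.57 FPKM). In glutamate-marked over GABA-marked LS cells 28 passed, 15 were higher and 3 lower, with a median of 1.28. Over all genes tested by class, 35.8% were higher and 21.2% lower, with a median of 0.33. Baiap2 (83.3 against 5.01 FPKM) and Begain (61.8 against 0.30 FPKM) were among the higher ones.

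Dlg4 and Dlg2 proteins are held at the membrane by palmitate, which Zdhhc enzymes add and Abhd17 enzymes remove. Of 11 genes of this lipid anchoring and of traffic 10 passed, 7 were at least 2-fold higher in LS cells and none lower, with a median log2 ratio of 2.06. Dynll1, a dynein light chain gene, had 49.9 against 5.14 FPKM, Cript, whose product binds PSD-95, 48.3 against 26.5 FPKM (below 2-fold), Abhd17a 19.7 against 5.02 FPKM and Abhd17c 19.5 against 0.82 FPKM. By class 6 of 11 were higher and none lower in glutamate-marked LS cells, with a median of 1.02. Of 9 genes of the inhibitory postsynapse, a counterpart to the excitatory density, 7 passed, and 3 were higher and 2 lower in LS cells (median 0.76). Nlgn2, the neuroligin of inhibitory synapses, had 20.8 against 12.3 FPKM, Dag1 15.8 against 2.75 FPKM, and Gphn, the gephyrin gene, 9.36 against 1.56 FPKM. By class 8 passed, 3 were higher and 2 lower in glutamate-marked LS cells, with a median of -0.24, against 1.28 for the excitatory list and 0.33 for all genes. Beside these counts, 42.3% of all genes tested were higher and 16.1% lower in LS cells, with a median of 0.64. By class the shares were 35.8% and 21.2%. The lists were not tested against other genes.

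The 2 genes with the highest GC content of the 9, Shank3 (62.4% in its longest coding transcript) and Shank1 (61.4%), were also among the 3 with a ratio towards NS cells. Over all genes that passed the filter the median log2 ratio of LS over NS was 0.83 at 40 to 45% GC and 0.32 at 60 to 65% GC, and Dlg4 had 46.8% GC. Whether base composition has a part in the values of these genes was not tested. Exons of Shank3, Homer2 and Dlgap1 overlap non-coding genes of the opposite strand by 271, 525 and 92 bases, and those of Dlg2 overlap such genes of the same strand by 75 and 150 bases. Whether the counting used strand, and how it treated reads shared by paralogs, is not given in the sources used here.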

How the data were processed

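Smart-seq2 libraries of 63 neurons (46 LS, 17 NS) were analysed. The authors trimmed reads with AfterQC, aligned them to GRCm38 with STAR 2.5.3a, counted them with featureCounts and gave FPKM with scater, and the deposited table holds these FPKM values for protein-coding genes that reached 1 FPKM. Of its columns of cells 0 stayed unused, and 4 rows sharing a name were left out. Cells were filtered on these values as the study describes, the product scores of markers (Gfap, S100b and Aqp4; Olig1, Olig2 and Mbp; Slc17a7, Neurod2, Gad1 and Gad2) included, which removed 16 cells, 10 of them by the astrocyte score.

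FPKM values of a gene move in steps worth 1 read, from which whole reads were derived, with the exon length of GENCODE M21 for 12097 genes and a length solved from the values for 6775. The recovery of reads was tested on simulated data. Reads served only for pooled reads, thinning, CPM and intervals, with 3 reads over a group as the floor. Depth was 149133 to 2523762 reads per cell.

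Means of FPKM were compared as ratios, read as higher or lower from 2-fold on, with no test, since each group counts as 1 sample. The alternatives were other cell filters, averages, scales, depths and class rules, and leaving out single cells. Chosen after seeing the data were the receptor gene limit within marker classes, the middle tier from any Dlgap gene, annotated exon lengths, and GABA-marked NS means without the richest cell.

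The genes named were the 9 scaffold genes, the 3 genes most correlated with each over LS cells, up to 4 of the most abundant genes of each list, and markers. A gene that this rule also names is not reported here. The scaffold genes and all lists were chosen with earlier results of these data known. Positions are those of GENCODE M21. Computation ran under Python 3.11.15 with pandas 2.3.3, scipy 1.17.1 and numpy 2.4.6, and thinning used the seed 11.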

Additional observations from a re-analysis of the deposited data

Results flagged for a closer look

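The 16 cells that the filters removed are outside the comparisons above, and they also held reads of the scaffold genes. The 11 removed LS cells had 5143 reads of the 9 genes in all, and the 5 removed NS cells had 2075. NS_17 had a read of all 9 genes (1520 reads) at 10340 genes above 1 FPKM, which no NS cell that was kept did. LS_5, LS_8 and LS_27 also had all 9. LS_16 and NS_10 had no read of any, at 793859 and 135785 reads on listed genes.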

How the results depend on the processing

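For LS over NS, Dlg4 had a log2 ratio of 0.43 with means of log2(FPKM + 0.1), Dlgap1 one of -0.15 at a receptor gene level under 10%, and Shank3 one of 0.19 in glutamate-marked cells. In GABA-marked cells Dlg1, Dlg2 and Dlgap1 had -0.94, -1.28 and -0.57. Genes below 2-fold turned as well, Shank1 to 1.77 by medians, 0.59 and 1.66 on the log2 scales and 0.20 in glutamate-marked cells, and Homer2 to -1.88 in glutamate-marked cells and -0.44 in cells of at least 3000 genes. The count of genes at least 2-fold lower in LS cells was 1 with either log2 scale in place of 2, and the count of higher ones was 3 in glutamate-marked cells and 7 with log2(FPKM + 0.1) in place of 5. The higher count ran from 4 to 5 with each cell left out, while the count of lower ones stayed at 2. Of the LS-to-NS values for single genes beside the reversed 2-fold calls, 82 moved by less than the SD between cells and 14 by more. That SD is of log2(FPKM + 1), and a value that moved by less can still change sign or lose its call. Among the 82 are Shank1 by medians (-0.57 to 1.77) and Dlg4 with log2(FPKM + 1) (-1.75 to -0.19). The 82 are therefore no measure of stability.

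With LS and NS cells together, glutamate over GABA gave -0.76 for Dlg4, -0.56 for Shank1 and -1.91 for Shank3, so that 5 genes were higher and 1 lower in place of 9 and 0. With each cell left out the higher count ran from 6 to 9 and the lower count stayed at 0. In all LS cells Shank3 had 0.08. At a receptor gene level under 10%, a setting chosen after seeing the data, 9 genes were higher and 0 lower. For these settings the cause was not tested. Against a group without a read, ratios use the floor of 3 reads, and their size depends on it.

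The mean number of genes with a read per cell ran from 6.07 to 7.03 in LS and from 3.38 to 3.50 in NS cells over the other settings, and with each cell left out from 6.47 to 6.74 and from 3.18 to 3.73. Medians over cells gave no LS-to-NS ratio for Dlg1, Dlg2, Dlg3, Dlg4 and Homer2, since the NS median was 0. Without the filter on low values the background was 31.5% higher and 39.6% lower. No paired analysis was possible because the replicate numbers only name cells and no test was made.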
